A study of Danio rerio with 11 samples.

Results

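The genes described here are 10 markers of bile duct cells and liver progenitors in zebrafish, sox9b, anxa4, alcama, krt18a.1, krt8, cftr, epcam, jag1b, notch3 and her6. They were looked up by gene name, in any letter case, among the 32105 Ensembl gene IDs counted in every library, and compared between hUHRF1 livers and the livers of WT siblings. Of the 10 genes, 7 matched an ID by name and alcama matched the ID named ALCAM, so 8 had an ID of their own. The name sox9b could not be settled, since 2 IDs bear the name SOX9, and both are shown. No ID bears the name her6, and the ID named HES1, its human counterpart, is shown under that name and not counted.

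RNA-seq was done on pools of whole livers dissected from untreated larvae at 5 dpf, 5 pools of hUHRF1 livers and 6 pools of WT livers. The hUHRF1 larvae were EGFP-positive carriers of Tg(fabp10a:hUHRF1-EGFP)high, in which the fabp10a promoter, active in hepatocytes, drives human UHRF1 fused to EGFP. The labels do not say what the word high in the name of the line stands for, nor how many founders it goes back to. The WT larvae were siblings from the same crosses, and each hUHRF1 pool held 27 or 30 livers against 20 in each WT pool. Clutches 4, 6, 7, 8 and 9 gave a pool of each condition, and clutch 5 gave a WT pool. Sample titles follow a different wording for clutches 4 to 6 than for clutches 7 to 9, and whether these were separate rounds of collection or sequencing is not given in the sources used here. The study's methods name both a NextSeq and a HiSeq instrument and do not say which libraries ran on each. The study's methods describe an outcross to WT and state that every animal was heterozygous for the transgene, whereas the labels describe an incross of carriers.

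Bile ducts in the liver are lined by biliary cells, or cholangiocytes, which arise with hepatocytes from a common progenitor, the hepatoblast. Notch signaling is known to favor the biliary fate: Jagged ligands on a cell bind Notch receptors on its neighbor, the receptor is cut, and its inner part turns on genes of the Hes and her family in the nucleus. In zebrafish and mammals, biliary cells are marked by simple epithelial keratins, by adhesion proteins such as Epcam and Alcam, and by the transcription factor Sox9, and several of these markers are also carried by liver progenitors and by other epithelia. In the hUHRF1 larvae the transgene is placed in hepatocytes and not, by its promoter, in the biliary cells that these genes mark.

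Total counts per library were 9064943 to 19370497 in hUHRF1 pools and 15285359 to 23322479 in WT pools. Values are given as CPM (counts set to a common library total) after scaling with TMM, a method that sets the libraries so that most genes do not differ. The TMM factors did not overlap, at 1.12 to 1.71 in hUHRF1 pools and 0.672 to 0.978 in WT pools. Hepatocyte markers fell in hUHRF1 livers, with 14 of 16 called lower, beside 14.6% of all genes tested, and L2FC from -4.26 to -0.91. The summed levels of these markers were 30398 to 87335 CPM in hUHRF1 pools, against 99838 to 185607 CPM in WT pools. In every pool their sum was above that of each other marker list. In pools of whole livers, fewer hepatocytes and less hepatocyte RNA per cell cannot be told apart, and the same holds for every cell type named below. The files hold no ID for the human transgene, and whether some of its reads were counted at the zebrafish gene uhrf1 was not tested. The uhrf1 ID was called higher in hUHRF1 pools (L2FC 0.95 ± 0.29 SE, edgeR padj = 0.024). That call was lost without the hUHRF1 pool of clutch 6, at an L2FC of 0.73 (edgeR padj = 0.078).

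Of the 8 IDs, 7 passed the filter on low counts and were tested, and cftr did not pass. Epcam and jag1b were called higher in hUHRF1 livers (edgeR padj under 0.05), no member was called lower, and 5 were not called. Across all 15838 genes tested, 29.1% were called, 14.5% higher and 14.6% lower. The count of 2 of 7 called is thus close to the share of all genes called in either direction. The median L2FC of the 7 members tested was 0.22, beside a median of 0.05 over all genes tested. At an unadjusted p under 0.05, 3 members were higher and 0 lower, and DESeq2 called 2 higher and 0 lower. Of the 20389 genes to which DESeq2 gave an adjusted p, it called 5416. At the unadjusted cut at least 29.1% of all genes pass, and their share was not counted, here or for the lists below.

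**Figure D1:**
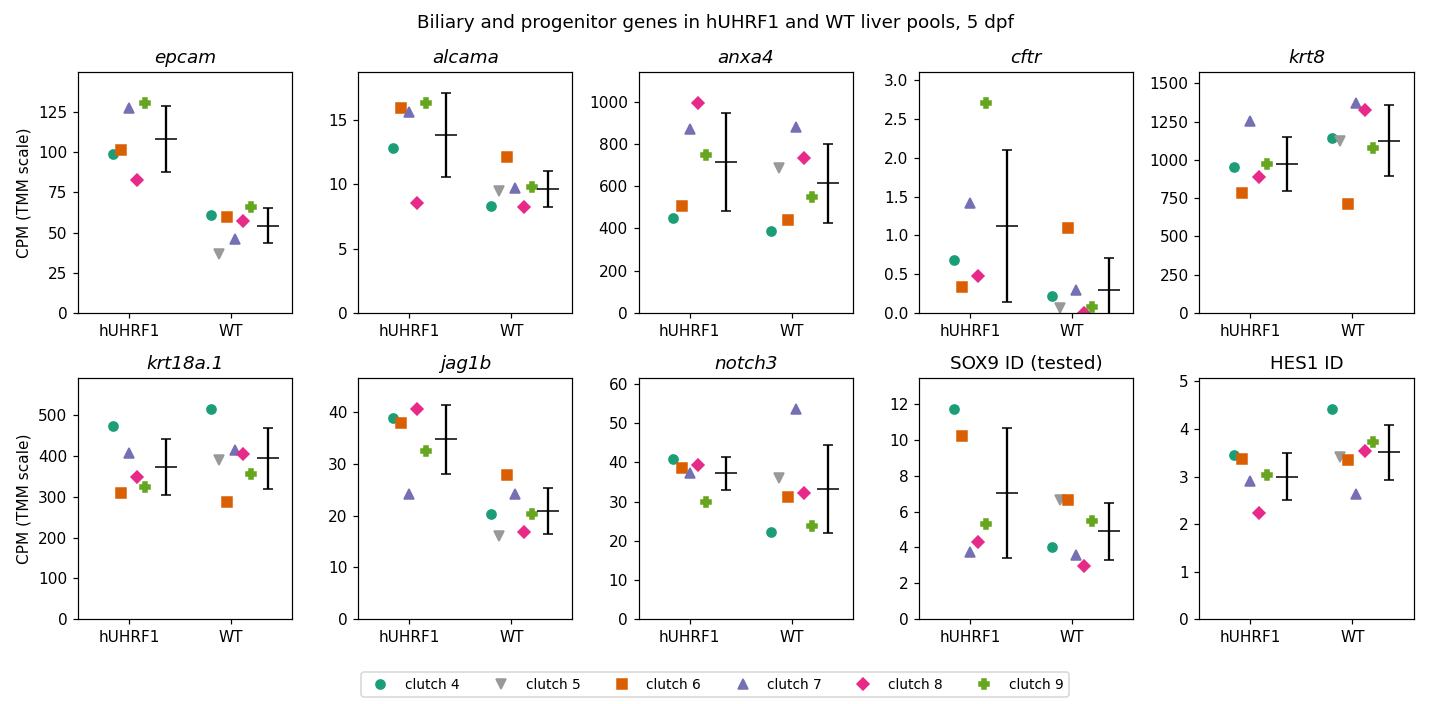
CPM on the TMM scale in each liver pool, hUHRF1 left and WT right, with clutches marked by color and shape. Bars give the mean ± SD (n = 5 hUHRF1 and 6 WT pools), and the bar of cftr in WT is drawn only down to 0. Epcam is the only panel in which every hUHRF1 pool lies above every WT pool, whereas the points of krt8 and krt18a.1 overlap.

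Among the 7 members tested, epcam had the largest L2FC. Epcam (ENSDARG00000040534) encodes an adhesion protein of epithelial cells and is a classic marker of biliary cells and liver progenitors. In hUHRF1 pools it stood at 98.6 CPM in clutch 4, 101.4 in clutch 6, 127.3 in clutch 7, 82.8 in clutch 8 and 130.2 in clutch 9, and WT pools had a lowest value of 36.5, a median of 58.4 and a highest of 65.7 CPM. Every hUHRF1 pool was above every WT pool, a separation upward that 8.05% of all genes tested showed. The means were 108.1 ± 20.2 CPM in hUHRF1 and 54.2 ± 10.9 CPM in WT (SD, n = 5 and 6), a 1.99-fold difference with an L2FC of 0.99 ± 0.19 SE (95% interval 0.59 to 1.40, edgeR padj = 0.0016). In all 5 clutches that gave both pools the hUHRF1 pool had more epcam than the WT pool, by 0.53 in clutch 8 to 1.47 in clutch 7 on the log2 CPM scale. In clutches 4 to 6 alone, with 2 hUHRF1 pools, the L2FC was 0.92 and the call was lost (edgeR padj = 0.071).

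Alcama encodes a cell adhesion protein of the immunoglobulin family that marks the biliary tree of the zebrafish liver. The ALCAM ID (ENSDARG00000026531) had 12.8, 15.9, 15.6, 8.56 and 16.3 CPM in the hUHRF1 pools of clutches 4, 6, 7, 8 and 9, against a lowest value of 8.24, a median of 9.60 and a highest of 12.1 CPM in WT pools. The hUHRF1 pool of clutch 8 lay within the WT range and the other 4 lay above it. The L2FC was 0.53 ± 0.19 SE (95% interval 0.12 to 0.93) with means of 13.8 ± 3.26 CPM in hUHRF1 and 9.61 ± 1.39 CPM in WT, and it missed the threshold (edgeR padj = 0.052). In each of the 5 clutches the hUHRF1 pool had the higher value, by 0.06 in clutch 8 to 0.73 in clutch 9 on the log2 CPM scale. It passed the threshold when the clutch was taken as a block (L2FC 0.50, edgeR padj = 0.038), without the hUHRF1 pool of clutch 8 (L2FC 0.65, edgeR padj = 0.014) and without the WT pool of clutch 6 (L2FC 0.60, edgeR padj = 0.039). It also passed under a filter that asked for 10 or more counts in each pool (L2FC 0.61, edgeR padj = 0.025) and with a term for clutches 4 to 6 against 7 to 9 (L2FC 0.54, edgeR padj = 0.04). In 15 of the 21 other settings alcama stayed not called. Among these were DESeq2 (L2FC 0.49, DESeq2 padj = 0.075) and the fit without the hUHRF1 pools of clutches 7 and 9 (L2FC 0.37, edgeR padj = 0.26). Alcama therefore stood at the threshold.

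Its paralogue alcamb (ENSDARG00000058538) was called higher, at 11.3 ± 2.66 CPM in hUHRF1 and 4.95 ± 2.55 CPM in WT (L2FC 1.18 ± 0.34 SE, edgeR padj = 0.02). Its 5 hUHRF1 pools, from 8.65 to 14.8 CPM, lay above its 6 WT pools, from 1.85 to 7.68 CPM. The call was lost by a narrow margin when the clutch 8 hUHRF1 pool was left out (L2FC 1.06, edgeR padj = 0.051), and also without the hUHRF1 pools of clutches 7 and 9 (L2FC 1.11, edgeR padj = 0.076).

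Anxa4 encodes an annexin, a calcium-dependent membrane-binding protein that is abundant in biliary epithelium. The gene (ENSDARG00000036456) had 448.7, 508.4, 869.8, 991.6 and 748.6 CPM in the hUHRF1 pools of clutches 4, 6, 7, 8 and 9, against a lowest value of 389.1, a median of 618.1 and a highest of 879.8 CPM in WT pools. The pools of clutches 4 and 6 were low in both conditions and those of clutches 7 and 8 high in both, so that the clutches differed by more than the conditions. The L2FC was 0.22 ± 0.27 SE, with a 95% interval of -0.35 to 0.79 (edgeR padj = 0.57). Within clutches the difference on the log2 CPM scale ran from -0.02 in clutch 7 to 0.44 in clutch 9.

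Cftr encodes the chloride channel of the apical membrane of duct cells, known in bile ducts and pancreatic ducts. The gene (ENSDARG00000041107) had too few counts for the test, with 13, 11, 25, 6 and 32 counts in the hUHRF1 pools of clutches 4, 6, 7, 8 and 9, and 3, 1, 25, 3, 0 and 1 counts in the WT pools of clutches 4, 5, 6, 7, 8 and 9. On the CPM scale the hUHRF1 pools had 0.681, 0.334, 1.42, 0.48 and 2.70, against a median of 0.15 and a highest value of 1.1 in WT pools. The count of 0 in the WT pool of clutch 8, among 16244710 counts, allows up to 0.252 CPM, by counting error alone. The WT pool of clutch 6 lay above 3 of the hUHRF1 pools, so the groups overlapped. Without the filter the L2FC was 1.71 ± 0.77 SE and not called (edgeR padj = 0.16), and DESeq2 gave 1.82 ± 0.82 SE (padj = 0.086). Within clutches the difference on the log2 CPM scale was 1.23, -1.42, 1.90, 2.30 and 3.81 in clutches 4, 6, 7, 8 and 9. A difference in cftr was thus not called in either fit that included it.

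Keratins 8 and 18 pair into the intermediate filaments of simple epithelia, and in mammals they occur in hepatocytes as well as in biliary cells. Krt8 (ENSDARG00000058358) had 955.5, 784.7, 1255.5, 890.8 and 975.6 CPM in the hUHRF1 pools of clutches 4, 6, 7, 8 and 9, against a lowest value of 712.8, a median of 1133.4 and a highest of 1369.9 CPM in WT pools. The ranges overlapped almost fully, and the hUHRF1 pool was the lower of the pair in 4 of 5 clutches. The L2FC was -0.21 ± 0.21 SE (95% interval -0.66 to 0.23, edgeR padj = 0.47).

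Krt18a.1 (ENSDARG00000018404) had 474.6, 308.5, 407.2, 349.6 and 324.9 CPM in the hUHRF1 pools of the same clutches, against a lowest value of 287.2, a median of 398.1 and a highest of 514.0 CPM in WT pools. No hUHRF1 pool lay outside the WT range. The L2FC was -0.08 ± 0.19 SE, with a 95% interval of -0.49 to 0.32 (edgeR padj = 0.78), and within clutches the difference ran from -0.21 to 0.10 on the log2 CPM scale. The clutch 4 pools were the highest and the clutch 6 pools the lowest of each condition, so krt18a.1 varied more between clutches than between conditions. The 2 partner keratins kept a like ratio of counts, krt8 over krt18a.1 being 2.64 ± 0.43 in hUHRF1 and 2.86 ± 0.43 in WT (SD, n = 5 and 6).

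Another keratin of this class, krt18b (ENSDARG00000028618), a paralogue of krt18a.1, was called higher. It had 24.5, 16.7, 36.6, 21.1 and 18 CPM in the hUHRF1 pools of clutches 4, 6, 7, 8 and 9, against a lowest value of 5.63, a median of 8.70 and a highest of 22.3 CPM in WT pools. The L2FC was 1.16 ± 0.33 SE (edgeR padj = 0.018), with 5 of 5 clutches higher. The highest WT value, from clutch 4, lay above 3 of the 5 hUHRF1 pools. The call was lost when the clutch 7 hUHRF1 pool was left out (L2FC 0.93, edgeR padj = 0.055), and also without both that pool and the clutch 9 hUHRF1 pool (L2FC 0.98, edgeR padj = 0.077).

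Over the keratin family as named in the gene table, 18 of 22 IDs were tested, 1 was called higher (krt18b), 0 lower and 17 not called, with a median L2FC of 0.05, the same as over all genes tested, of which 29.1% were called and 14.5% called higher. At an unadjusted p under 0.05, a cut for which the share of all genes was not counted, 3 were higher and 1 lower. DESeq2 called 1 higher and 1 lower, beside 5416 of 20389 genes in all. The next smallest adjusted p-values belonged to krt97 (L2FC 1.0, edgeR padj = 0.059), krt92 (L2FC -0.81, padj = 0.063), krt94 (L2FC 0.61, padj = 0.074) and krt18a.2 (L2FC -0.60, padj = 0.23). With the clutch as a block, krt92 passed as lower (L2FC -0.78, edgeR padj = 0.0012) and krt94 as higher (L2FC 0.62, edgeR padj = 0.015). Krt92 was the lower of the pair in 5 of 5 clutches, although on library size alone its L2FC was -0.02. How reads shared by near-identical keratin genes were counted is not given in the sources used here, so the split of reads among them is uncertain.

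Jag1b is a Jagged ligand of the Notch receptors, and its human counterpart JAG1 is mutated in Alagille syndrome, in which bile ducts are scarce. The gene (ENSDARG00000013168) had 38.8, 37.8, 24.1, 40.5 and 32.4 CPM in the hUHRF1 pools of clutches 4, 6, 7, 8 and 9, against a lowest value of 16.1, a median of 20.3 and a highest of 27.8 CPM in WT pools. All hUHRF1 pools but that of clutch 7 lay above every WT pool. The means were 34.7 ± 6.65 CPM in hUHRF1 and 20.9 ± 4.44 CPM in WT, a 1.66-fold difference with an L2FC of 0.73 ± 0.19 SE (95% interval 0.33 to 1.13, edgeR padj = 0.01). Within clutches the difference on the log2 CPM scale was 0.92, 0.44, -0.01, 1.26 and 0.67 in clutches 4, 6, 7, 8 and 9. In clutches 4 to 6 alone the L2FC was 0.82 (edgeR padj = 0.088) and in clutches 7 to 9 alone 0.65 (edgeR padj = 0.1), of like size but not called in these smaller sets.

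The jag1b paralogue jag1a (ENSDARG00000030289) averaged 3.53 ± 0.736 CPM in hUHRF1 and 3.55 ± 0.782 CPM in WT (L2FC -0.02 ± 0.24 SE, edgeR padj = 0.96). The difference between the 2 paralogues was not tested.

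Notch3 is a receptor for these ligands, known in mammals from mural cells of vessels as well as from liver. The NOTCH3 ID (ENSDARG00000052139) had 40.9, 38.5, 37.3, 39.3 and 30.0 CPM in the hUHRF1 pools of clutches 4, 6, 7, 8 and 9, against a lowest value of 22.2, a median of 31.7 and a highest of 53.5 CPM in WT pools. The hUHRF1 pools fell inside the WT range. The L2FC was 0.17 ± 0.21 SE, with a 95% interval of -0.29 to 0.62 (edgeR padj = 0.59), and the clutches ran from -0.52 in clutch 7 to 0.88 in clutch 4. The summed mural and stellate cell markers were higher, at 101.1 to 251.9 CPM in hUHRF1 pools and 57.9 to 108.9 CPM in WT pools. Of these markers 4 of 8 were called higher and 0 lower, beside 14.5% of all genes called higher. The part of these markers in the level of notch3 was not tested.

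In mammals the transcription factor Sox9 and the Hes repressors act downstream of Notch in developing ducts. Of the 2 SOX9 IDs, ENSDARG00000043923 had 11.7, 10.2, 3.75, 4.32 and 5.31 CPM in the hUHRF1 pools of clutches 4, 6, 7, 8 and 9, against a lowest value of 2.94, a median of 4.76 and a highest of 6.67 CPM in WT pools. The hUHRF1 pools of clutches 4 and 6 were above the WT range and the other 3 within it. Its L2FC was 0.53 ± 0.33 SE (95% interval -0.19 to 1.25, edgeR padj = 0.26). The other SOX9 ID, ENSDARG00000003293, had 1 to 10 counts in hUHRF1 pools and 1 to 15 counts in WT pools and was not tested. The HES1 ID (ENSDARG00000006514) stood between 2.24 and 3.46 CPM in hUHRF1 pools and between 2.63 and 4.41 CPM in WT pools. Its L2FC was -0.22 ± 0.23 SE (95% interval -0.71 to 0.27, edgeR padj = 0.49). At these levels neither SOX9 nor HES1 showed a difference larger than the spread between pools.

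**Figure D2:**
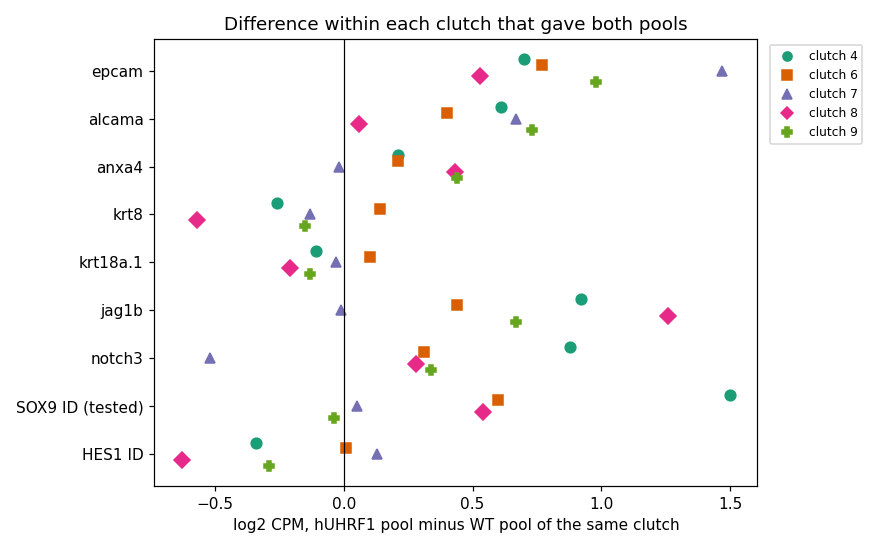
Difference in log2 CPM between the hUHRF1 pool and the WT pool of the same clutch, for the 5 clutches that gave both. Points right of 0 are higher in hUHRF1. Epcam and alcama lie right of 0 in all 5 clutches, jag1b in 4 of 5, and krt8 and krt18a.1 in 1 of 5, that of clutch 6.

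The direction of the smaller differences depended on how the libraries were scaled. When counts were divided by library size alone, the median L2FC of all genes tested was 0.83, in place of 0.05 under TMM, and 8860 genes were called, 93.1% of them higher, in place of 4612 with 49.8% higher. On that scale all 7 members tested were called higher, so that krt18a.1 (0.71, edgeR padj = 0.0039) and krt8 (0.59, edgeR padj = 0.0056) turned from negative to positive, though both stayed under the median of all genes. Epcam (1.77), jag1b (1.5) and alcama (1.32) stood above the median on that scale too, while anxa4 (0.99) and notch3 (0.98) stood near it. Ratios of counts within a library do not depend on the scaling, and 3 of them, chosen after the values were seen, are given without a test. Epcam over krt8 was 0.112 ± 0.0181 in hUHRF1 and 0.0511 ± 0.0193 in WT, with every hUHRF1 pool, from 0.093 to 0.133, above every WT pool, from 0.0325 to 0.0834. Epcam and krt8 are the members with the highest and the lowest L2FC of those tested. Epcam over anxa4 was 0.165 ± 0.053 in hUHRF1 and 0.0989 ± 0.0439 in WT, and the pools overlapped. Jag1b over notch3 was 0.938 ± 0.17 in hUHRF1 and 0.681 ± 0.23 in WT, and the pools overlapped.

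**Figure D3:**
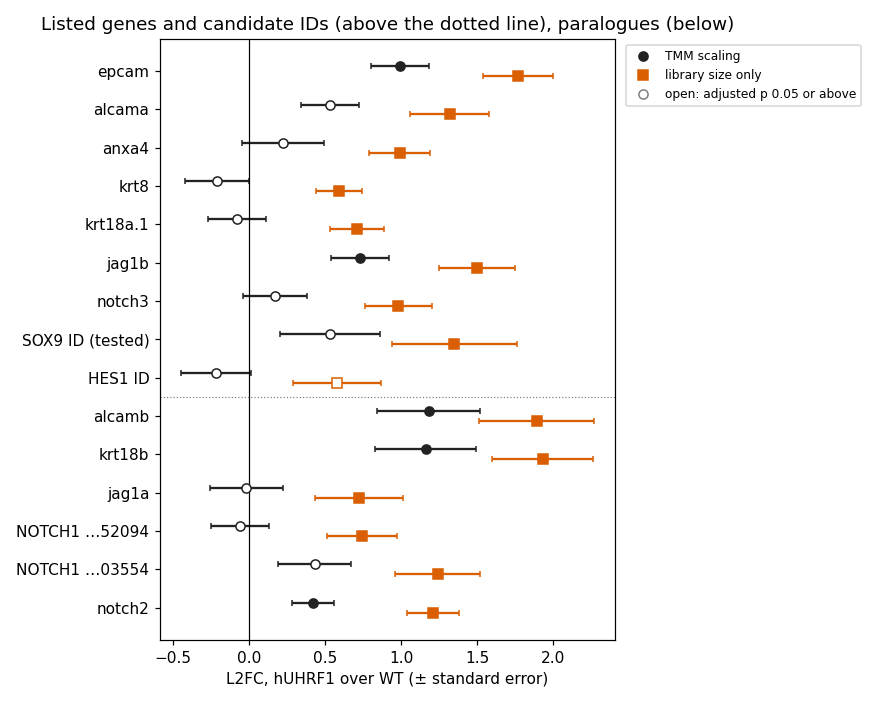
L2FC of hUHRF1 over WT (± standard error) for the listed genes and the SOX9 and HES1 IDs above the dotted line and for paralogues below it, under TMM scaling (circles) and under library size alone (squares). Open symbols have an adjusted p of 0.05 or above. Every symbol shifts right on library size alone, by about as much as the median of all genes, and krt8, krt18a.1, HES1, jag1a and 1 NOTCH1 ID cross 0.

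Of the other genes of the Notch pathway, 33 of 44 IDs were tested, 4 were called higher in hUHRF1 livers and 1 lower, with a median L2FC of -0.06. These 5 calls among 33 are fewer, as a share, than the 29.1% called among all genes. At an unadjusted p under 0.05, a cut for which the share of all genes was not counted, 4 were higher and 4 lower. DESeq2 called 4 higher and 1 lower, beside 5416 of 20389 genes in all. Among the ligands 1 of 5 tested was higher, among the receptors 1 of 3, among genes that cut or modify the receptor or its ligands 2 of 16, among the nuclear factors 0 of 4 (0 at an unadjusted p under 0.05 and 0 by DESeq2), and among the targets 1 of 5 was lower. The ligands had a median L2FC of -0.31, and at an unadjusted p under 0.05 1 was higher and 2 lower.

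The ligand gene jag2b (ENSDARG00000021389) averaged 10.0 ± 1.90 CPM in hUHRF1 and 6.43 ± 1.6 CPM in WT (L2FC 0.64 ± 0.21 SE, edgeR padj = 0.035). It remained called in 3 of the 11 fits that left out 1 pool, over which its adjusted p ran from 0.022 to 0.091. The receptor gene notch2 (ENSDARG00000043130), whose human counterpart is the other gene of Alagille syndrome, had 31.1 to 38.7 CPM in hUHRF1 pools and 21.4 to 30.1 CPM in WT pools. Its groups did not overlap, but the difference was small (L2FC 0.42 ± 0.14 SE, edgeR padj = 0.036) and the call held in 1 of 11 fits that left out 1 pool, with an adjusted p of 0.025 to 0.091. Both genes thus stood at the threshold. Of the 2 IDs named NOTCH1, ENSDARG00000052094 had an L2FC of -0.06 (edgeR padj = 0.82) and ENSDARG00000103554 of 0.43 (edgeR padj = 0.19), and on library size alone they had 0.74 and 1.24.

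LFNG (ENSDARG00000037879), a fringe enzyme that adds sugars to Notch and tunes which ligand it answers, averaged 33.7 ± 7.94 CPM in hUHRF1 and 19.9 ± 3.78 CPM in WT (L2FC 0.75 ± 0.19 SE, edgeR padj = 0.0099). Its 5 clutch differences were all positive, from 0.24 in clutch 4 to 1.22 in clutch 9 on the log2 CPM scale. Without the hUHRF1 pools of clutches 7 and 9 its L2FC was 0.61 and the call was lost (edgeR padj = 0.072). APH1B (ENSDARG00000005612), a subunit of the gamma-secretase that cuts Notch, varied little within conditions, with 39.3 to 45.8 CPM in hUHRF1 pools and 27.9 to 32.0 CPM in WT pools. The groups did not overlap (L2FC 0.48 ± 0.13 SE, edgeR padj = 0.011), and without the filter on low counts the call was lost (L2FC 0.45, edgeR padj = 0.062).

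The target that fell was NRARP (ENSDARG00000018958), a small ankyrin-repeat protein that Notch turns on and that dampens Notch in turn. It had 3.30, 3.80, 3.35, 2.64 and 2.53 CPM in the hUHRF1 pools of clutches 4, 6, 7, 8 and 9, against a lowest value of 4.38, a median of 6.96 and a highest of 10.5 CPM in WT pools. Every hUHRF1 pool lay below every WT pool, a separation downward that 9.02% of all genes tested showed. The L2FC was -1.22 ± 0.25 SE (edgeR padj = 0.0023). On library size alone it was -0.42 and not called (edgeR padj = 0.24), while the median of all genes was 0.83. The other ID named NRARP, ENSDARG00000091419, had an L2FC of -0.08 (edgeR padj = 0.72). The her and hey genes listed as targets had too few counts to be tested, except her15.1 (L2FC -0.09, edgeR padj = 0.86) and HEY1 (L2FC -0.26, edgeR padj = 0.65).

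**Figure D4:**
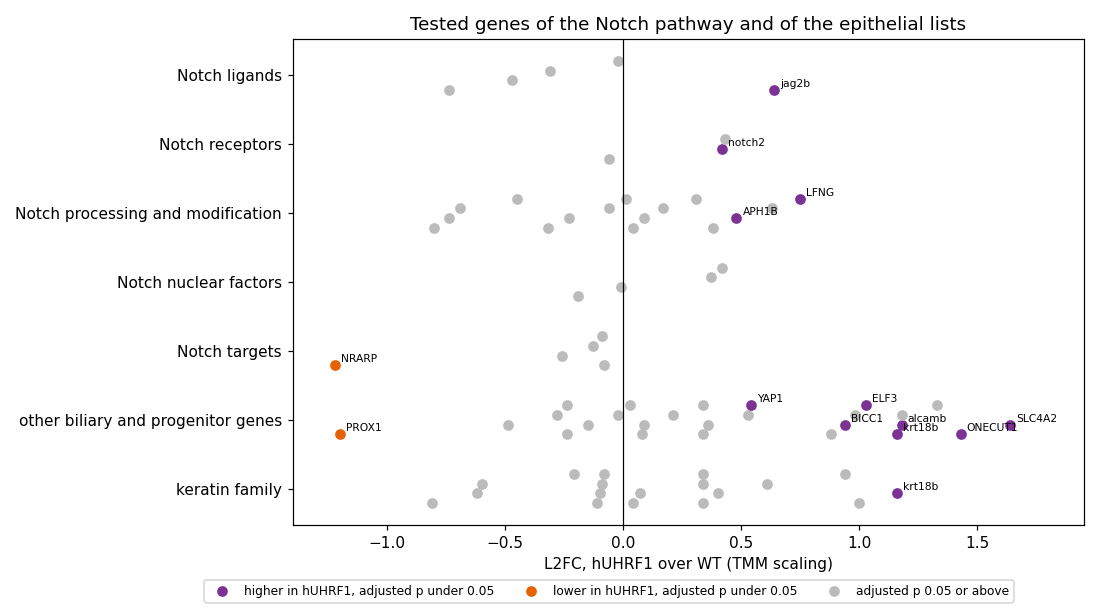
L2FC of hUHRF1 over WT under TMM scaling for the tested genes of the Notch lists, the list of other biliary and progenitor genes and the keratin family, with krt18b and jag1a in 2 rows each. Purple points were called higher, orange points lower and grey points neither, and called genes are named. NRARP and PROX1 are the only points called lower, and SLC4A2 lies farthest to the right.

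A list of other genes tied to biliary cells or liver progenitors had 35 IDs, 28 of them tested. In hUHRF1 livers 8 were called higher and 1 lower, with a median L2FC of 0.35 beside 0.05 over all genes. Of all genes, 14.5% were called higher and 29.1% in either direction, and the list's calls in either direction were close to that last share. The list was chosen with earlier results of these data known, so its lean upward is described and was not tested. At an unadjusted p under 0.05, 10 were higher and 2 lower. At least 29.1% of all genes pass that cut, and their share was not counted. DESeq2 called 9 higher and 1 lower, beside 5416 of 20389 genes in all. The list includes alcamb and krt18b, described above, and both SOX9 IDs.

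SLC4A2 (ENSDARG00000028173), an anion exchanger that in mammals moves bicarbonate into bile, had the smallest adjusted p of the list. It had 38.8, 40.3, 27.3, 21.5 and 19.9 CPM in the hUHRF1 pools of clutches 4, 6, 7, 8 and 9, against a lowest value of 7.76, a median of 9.22 and a highest of 11.3 CPM in WT pools. The lowest hUHRF1 pool lay well above the highest WT pool. The fold was 3.12 (L2FC 1.64 ± 0.21 SE, edgeR padj = 0.00011). The call was kept under each of the 21 other settings tried, with an L2FC between 1.12 and 2.48. The other ID named SLC4A2, ENSDARG00000052330, averaged 29.2 ± 9.91 CPM in hUHRF1 and 28.6 ± 6.16 CPM in WT (L2FC 0.03 ± 0.23 SE, edgeR padj = 0.94).

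The next smallest adjusted p-value among the genes called higher belonged to ELF3. ELF3 (ENSDARG00000077982), an ETS factor of epithelia, had 19.5 to 23.7 CPM in hUHRF1 pools and 8.66 to 15.4 CPM in WT pools (L2FC 1.03 ± 0.17 SE, edgeR padj = 0.00073). ONECUT1 (ENSDARG00000007982), also known as HNF6 and needed for bile duct development in mice, averaged 2.90 ± 1.16 CPM in hUHRF1 and 1.08 ± 0.437 CPM in WT (L2FC 1.43 ± 0.38 SE, edgeR padj = 0.012). The hUHRF1 pool of clutch 7, at 1.25 CPM, was within the WT range and the other 4 were above it. In clutches 7 to 9 alone the ONECUT1 difference was 0.90 and not called (edgeR padj = 0.28).

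YAP1 (ENSDARG00000068401), the effector of Hippo signaling that favors biliary fate in mouse liver, had 18.7 to 24.8 CPM in hUHRF1 pools and 12.2 to 17.9 CPM in WT pools (L2FC 0.54 ± 0.15 SE, edgeR padj = 0.015). Without the filter on low counts its call was lost (L2FC 0.52, edgeR padj = 0.053). A further call was 1 of the 2 IDs named BICC1, an RNA-binding protein linked to cysts of ducts and tubules (ENSDARG00000070497, L2FC 0.94, edgeR padj = 0.034), named here after its values were seen.

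The gene that fell was PROX1 (ENSDARG00000055158), a homeodomain factor of hepatoblasts and hepatocytes that also marks lymphatic endothelium. It had 38.9, 41.1, 22.0, 33.0 and 24.5 CPM in the hUHRF1 pools of clutches 4, 6, 7, 8 and 9, against a lowest value of 59.9, a median of 69.2 and a highest of 91.3 CPM in WT pools. Every hUHRF1 pool was below every WT pool (L2FC -1.20 ± 0.20 SE, edgeR padj = 0.00077). On library size alone the L2FC was -0.38 and not called (edgeR padj = 0.21).

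Epithelial genes such as epcam and cftr are also expressed in organs that border the liver. Markers of the exocrine pancreas were higher in hUHRF1 pools, with 10 of 10 tested called higher and summed levels of 1441 to 12434 CPM in hUHRF1 pools and 737.9 to 3010 CPM in WT pools. None of these markers was at 0 in all pools. Intestine markers summed to 78.1 to 239.0 CPM in hUHRF1 pools and 75.5 to 155.9 CPM in WT pools, with 2 of 9 called higher and 1 lower. The median L2FC of the 9 intestine markers was 1.46, and 6 were higher and 1 lower at an unadjusted p under 0.05. The share of all genes under that unadjusted cut was not counted. The intestine marker that fell, FABP2 (L2FC -0.77, edgeR padj = 0.029), averaged 45.2 ± 14.1 CPM of the intestine sum in hUHRF1 and 76.8 ± 21.2 CPM in WT. CDH17 (L2FC 1.74, edgeR padj = 0.0024) and the ANPEP ID ENSDARG00000103878 (L2FC 1.46, edgeR padj = 0.013) rose. VIL1 had an L2FC of 2.27 without passing (edgeR padj = 0.097). Skin epithelium markers summed to 215.9 to 554.0 CPM in hUHRF1 pools and 214.3 to 537.6 CPM in WT pools, with 2 of 7 called higher. Of all genes tested, 29.1% were called, 14.5% higher and 14.6% lower. The skin and intestine calls, in either direction, were close to the share of all genes called. Macrophage markers summed to 29.7 to 49.3 CPM in hUHRF1 pools and 11.1 to 28.8 CPM in WT pools, which did not overlap, with 5 of 7 called higher and 0 lower. Endocrine pancreas markers summed to 78.6 CPM in the hUHRF1 pool of clutch 9, to 2.32 to 7.38 CPM in the other hUHRF1 pools and to at most 3.8 CPM in WT pools. The part of these cell types in the levels of epcam, jag1b and the other members was not tested.

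Cftr was highest in the pools with the most exocrine pancreas signal of each condition: the hUHRF1 pools of clutches 9 and 7, whose pancreas markers summed to 12434 and 8508 CPM, and the WT pool of clutch 6, at 3010 CPM. Epcam too was highest in these hUHRF1 pools, at 130.2 CPM in clutch 9 and 127.3 CPM in clutch 7. Among WT pools epcam was highest in clutch 9, at 65.7 CPM with a pancreas sum of 2277 CPM. Next came clutch 4, at 60.6 CPM with a pancreas sum of 945.1 CPM, and then clutch 6, at 59.4 CPM. The WT pool of clutch 7 had 45.9 CPM of epcam with a pancreas sum of 1651 CPM. The hUHRF1 pools of clutches 9 and 7 also had the highest intestine sums (239.0 and 207.4 CPM) of that condition. Muscle markers (340.7 and 864.5 CPM) and mural and stellate cell markers (155.2 and 251.9 CPM) were highest there too. So were skin epithelium markers (536.7 and 554.0 CPM) and endocrine pancreas markers (78.6 and 7.38 CPM). The WT pool of clutch 6 had the lowest muscle (63.1 CPM), mural (57.9 CPM) and skin (214.3 CPM) sums of its condition. Among WT pools the intestine sum was highest in clutch 9, at 155.9 CPM. The part of these signals, pancreas included, in the levels of cftr and epcam was not tested. In an added setting without the hUHRF1 pools of clutches 9 and 7, epcam (L2FC 0.79, edgeR padj = 0.017) and jag1b (L2FC 0.89, edgeR padj = 0.0071) were called. In that setting alcamb, krt18b, LFNG, jag2b and notch2 were not. Of the hUHRF1 pools that remained, that of clutch 4 had a pancreas sum of 3535 CPM, above every WT pool. Those of clutches 6 and 8 had 1441 and 2531 CPM, inside the WT range, with epcam at 101.4 and 82.8 CPM.

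**Figure D5:**
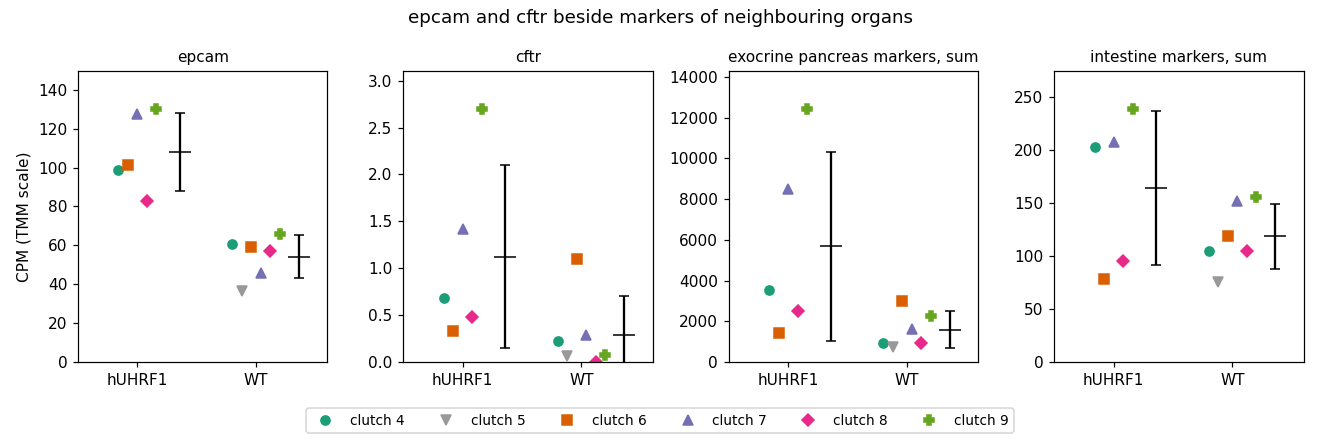
CPM of epcam and cftr and summed CPM of the exocrine pancreas and intestine markers in each pool, hUHRF1 left and WT right, with the mean ± SD (n = 5 and 6) and clutches by color and shape. The bar of cftr in WT is drawn only down to 0. The 2 hUHRF1 pools with the highest epcam and the highest cftr, of clutches 9 and 7, also have the highest pancreas and intestine sums.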

How the data were processed

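Counts per gene were deposited for 11 libraries of pooled larval livers, 5 hUHRF1 and 6 WT. The authors depleted ribosomal RNA, trimmed the reads, aligned them to GRCz10 with HISAT2 and counted them with HTSeq, and the deposited counts are not normalized. The annotation release, the tool versions and the strand and multimapping settings are not given in the sources used here, so overlapping or near-identical genes may share reads.

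The conditions were compared with the quasi-likelihood test of edgeR 4.0.16 (R 4.3.3, with limma 3.58.1 beneath it) on TMM-scaled libraries. Its function filterByExpr, with a minimum of 10 counts and a total of at least 15, left 15838 of 32105 genes, over which p-values were adjusted after Benjamini and Hochberg. A gene was called at an adjusted p under 0.05. L2FC is hUHRF1 over WT. CPM used TMM-scaled libraries, with a prior count of 2 on the log2 scale. DESeq2 1.42.0 was an alternative. The test was checked on simulated counts of independent pools, with few genes changed, equally up and down. That setting had no clutch effect and no shift in scaling between conditions, unlike these data.

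Names came from a table that names 26269 of the IDs: a gene was matched by name in any case, and otherwise without its final letter. The symbol her9 matched no ID, and dld was left out because its name is shared with another gene. The members and lists were chosen with earlier results of these data known. Named are all members, their paralogues and 5 keratins. Also named are the 5 smallest adjusted p-values among called genes of the Notch lists and of the biliary list. Named outside this rule are HES1, uhrf1, a BICC1 ID, her15.1, HEY1, the other NRARP and SLC4A2 IDs and the intestine markers given by name. A gene of the biliary list is not reported here, although the counts of that list include it.

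The clutch numbers come from the labels and mark a shared clutch. Deviations from the condition mean correlated at 0.206 to 0.481 between the 2 pools of a clutch. The comparison without the clutch is reported, and the one with the clutch as a block is given where it changed a call. No 2 pools of a condition agreed within sampling noise. P-values weigh the difference between conditions against the spread between pools. In the fit without the clutch, differences between clutches are part of that spread. In all 20 other settings were tried (scaling, filter, tool, clutch terms, subsets and each pool left out in turn), and 1 more was chosen after seeing the data, leaving out the hUHRF1 pools of clutches 7 and 9. Intervals and floors on single counts cover counting error only.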

Additional observations from a re-analysis of the deposited data

Results flagged for a closer look

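Of 60 sets of pools, 1 gene in 1 condition each, 6 held a pool whose distance from the nearest other pool took up an unusually large part of the range by Dixon's test, and chance alone sets aside about 1 in 20 such sets. Cftr stood at 1.1 CPM in the WT pool of clutch 6, against at most 0.292 CPM in the other WT pools. Krt18b stood at 22.3 CPM in the WT pool of clutch 4, where the other WT pools had 5.63 to 11.5 CPM. Jag1a was high in a pool of each condition, at 4.80 CPM in the hUHRF1 pool of clutch 8, beside 3.03 to 3.46 CPM in the other hUHRF1 pools, and at 5.05 CPM in the WT pool of clutch 6, beside 2.77 to 3.55 CPM in the other WT pools. Notch2 had 38.7 CPM in the hUHRF1 pool of clutch 7 and 31.1 to 32.9 CPM in the other hUHRF1 pools. ELF3 had 15.4 CPM in the WT pool of clutch 5, the clutch with no hUHRF1 pool, and 8.66 to 10.5 CPM in the other WT pools.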

How the results depend on the processing

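Called counts depended most on scaling and on the number of pools. On library size alone 7 members, 20 Notch and 22 other biliary and progenitor genes were called higher, with 0 lower in either list, and 8860 of all genes were called. There krt18a.1 (0.71), krt8 (0.59), jag1a (0.72) and the NOTCH1 ID ENSDARG00000052094 (0.74) turned positive and were called. HES1 (0.58) turned positive too and was not called (edgeR padj = 0.099). In clutches 4 to 6 alone 0 members, 0 Notch genes (0 lower) and 2 other biliary and progenitor genes were called higher by edgeR, of 1784 called in all, and there epcam, ELF3 and NRARP were among the genes whose calls were lost. In clutches 7 to 9 alone these counts were 1, 1 and 3, with 2 biliary genes lower, of 2541 called in all. Without the filter on low counts 1 Notch gene and 5 other biliary and progenitor genes were called higher. With the clutch as a replicate block 2 Notch genes were called lower, and likewise 2 with a term for clutches 4 to 6 against 7 to 9. The block raised the calls over all genes to 5533, on 10 pools, and moved no other count by over 1.5 times. Without the hUHRF1 pools of clutches 7 and 9, 1 Notch gene was called higher. Leaving out 1 pool in turn gave 2 to 3 members, 2 to 3 Notch and 6 to 9 other biliary and progenitor genes higher, 1 to 2 lower in either list, and 3881 to 4504 of all genes called. The 2 Notch genes came without the hUHRF1 pools of clutches 4, 6, 7 or 9 or the WT pools of clutches 5, 8 or 9, and the 2 lower genes without the hUHRF1 pool of clutch 9 (Notch) or 4 (biliary). No difference in response between clutches 4 to 6 and 7 to 9 was called (0 of 29 named genes and 0 of 15838, edgeR), which such small sets could miss. Of all values for named genes under the alternatives, 526 stayed on the same side of the threshold. Some of these changed sign where neither fit called the gene. A further 53 lost the call, 25 gained it with the same sign, and 4 changed sign with a call. The causes were not tested. Low counts kept cftr, 1 of the SOX9 IDs and most her and hey genes out of the main test.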
